A study of Homo sapiens with 8 samples.

Results

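Transcript levels after 48 h of KI696 were compared with those after 48 h of its vehicle, DMSO, in Calu-6 cells. Calu-6 is an established human lung cancer line that the labels call non-small cell lung cancer (NSCLC) with a WT genotype. The comparison holds 4 of the 8 libraries of the series, chosen by their column headings, 2 from cells given 1 µM KI696 and 2 from cells given DMSO. The other 4 libraries are the same treatments at 24 h. Cells grew in 6-well plates, and poly(A) RNA was read as single reads of 75 bases. Within a group the letters A and B mark the column order, since the headings carry no number. Nothing says that A and B were grown separately, so p-values measure only the spread within groups, pooled over both times, which may be technical. Levels are given in CPM (counts scaled to library size), with the floor that the table adds to every value taken off. They are not corrected for gene length. Changes are log2 differences, KI696 minus DMSO, on the deposited scale, and a gene is called when its adjusted p from limma is under 0.05 over all 13213 tested genes.

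KI696 is an inhibitor that keeps KEAP1 from gripping NRF2. NRF2, the product of NFE2L2, is a transcription factor that KEAP1 normally holds in the cytosol and hands to a ubiquitin ligase for destruction by the proteasome. When this hold is released, NRF2 enters the nucleus, pairs with a small MAF protein and binds antioxidant response elements near genes of glutathione and thioredoxin chemistry, NADPH supply, quinone and carbonyl detoxification and iron storage. In lung cancers, mutations of KEAP1 or NFE2L2 often leave the pathway constantly active.

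The 4 libraries held 7152831 (DMSO A), 14219064 (DMSO B), 7294443 (KI696 A) and 10769583 (KI696 B) reads, against 6994108 to 14219064 over the whole series. A limit of 3 reads corresponds to 0.213 to 0.421 CPM in these 4 libraries and covers counting error only. The libraries of each 48 h group stood apart from each other by more than counting error, with a chi-square per degree of freedom of 4.82 in DMSO and 3.64 in KI696, against 1.69 and 1.65 at 24 h. Along the first principal component, which held 61.1% of the variance, the DMSO libraries lay at -41.4 (A) and -31.5 (B), and the KI696 libraries at 7.92 (A) and 40.3 (B). Epithelial genes were higher in A than in B of both groups, as described with their values further on. Markers of other cells differed by type. The fibroblast markers COL1A1, COL1A2, LUM and PDGFRB summed to 139 and 133 CPM in DMSO and to 63.8 and 48.0 CPM in KI696. The endothelial markers VWF and CDH5 summed to 0.142 to 0.96 CPM and the leukocyte markers CD14 and CD79A to 1.45 to 3.57 CPM, while PECAM1, PTPRC, CD3E and DCN had no row in the table used. The keratins KRT8 and KRT18 were at 266 to 695 CPM in every 48 h library. The lung markers NKX2-1, SFTPB and NAPSA summed to 16.3 (DMSO A), 2.99 (DMSO B), 25.9 (KI696 A) and 1.36 (KI696 B) CPM, so the lung label was weakly met in the B libraries. In bulk RNA, fewer cells of a type and less RNA per cell cannot be told apart.

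After 48 h, 6445 genes were called, which is 48.8% of those tested. Of these, 2955 (22.4% of tested genes) were higher and 3490 (26.4%) lower with KI696. Changes of 1 log2 unit or more were rarer, with 259 genes higher and 832 lower, and 38 and 104 reached 2 units. The median size of a called change was 0.53 log2 units. Both KI696 libraries lay outside the range of both DMSO libraries for 9642 genes, or 73% of those tested (32.5% higher and 40.5% lower), so a lack of overlap is common here. Taken over every tested gene, the median change came to -0.07, against which the medians of the gene lists are to be read. The counts of each list are likewise to be read against the 22.4% higher and 26.4% lower of all tested genes. The lists were chosen with earlier results of these data known, so their counts describe them and are no independent test.

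The regulators of the pathway came first in order of role. NFE2L2, the gene of NRF2 itself (chr2:177227595-177392697, hg38), stood at 177 and 186 CPM in DMSO A and B and at 149 and 155 CPM in KI696 A and B. Its transcript was thus lower in each KI696 library, with a log2 change of -0.26 (SE 0.07, adjusted p = 0.005). KEAP1 (chr19:10486120-10503741), the adaptor that captures NRF2, had 187 and 194 CPM in DMSO and 285 and 279.8 CPM in KI696. Its change was 0.57 (SE 0.06), with no overlap of the groups. MAFG, a small MAF partner of NRF2, rose by 1.27 (SE 0.07) from 72.3 and 73.0 CPM to 175 and 176 CPM. SQSTM1, the autophagy receptor p62 that binds KEAP1, rose by 0.98, PGAM5, a mitochondrial phosphatase that binds KEAP1, by 0.47, and GSK3B, a kinase that marks NRF2 for another ubiquitin ligase, fell by 0.46. Of 22 regulators and partners of NRF2, 7 rose (31.8%, against 22.4% of all tested genes) and 6 fell (27.3%, against 26.4%). Their median was -0.06, or 0.01 under TMM scaling and 0.03 under quantile scaling, and ran from -0.12 to 0.05 with 1 library left out.

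All 39 tested NRF2 core targets were called higher at 48 h, where 22.4% of all tested genes were. As with every list, members were chosen with earlier results of these data known. Their median change was 1.76, against -0.07 for all genes, and 34 of them rose by 1 log2 unit or more. The range ran from 0.20 for IDH1, an isocitrate dehydrogenase, to 4.58 for AKR1C2. The call of IDH1 was lost without DMSO A (adjusted p = 0.071) and without KI696 A (adjusted p = 0.11). Averaged over the list, log2 levels were 5.93 (DMSO A), 5.58 (DMSO B), 7.69 (KI696 A) and 7.73 (KI696 B). DMSO A lay above DMSO B for 35 of the 39, and KI696 B above KI696 A for 28, against 5895 and 6759 of all 13213 tested genes.

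Of the 15 largest increases at 48 h, 10 were NRF2 core targets. All 15 had also been called higher at 24 h, where 18.1% of all tested genes were. AKR1C2 (chr10:4987400-5018031), an aldo-keto reductase of steroids and carbonyls, was at 8.23 and 2.06 CPM in DMSO and at 119.7 and 92.7 CPM in KI696. Both treated libraries were far above both controls, and the change was 4.58 (SE 0.39, adjusted p = 1.1e-06). AKR1B10 (chr7:134527592-134541408), an aldo-keto reductase that reduces retinal and lipid aldehydes, had 5.49 and 1.49 CPM in DMSO against 51.5 and 52.1 CPM in KI696, a change of 4.05 (SE 0.42). The KI696 libraries agreed closely, and it was the DMSO libraries that spread. ALDH3A1 (chr17:19737984-19748943), an aldehyde dehydrogenase of the airway and cornea, went from 5.08 and 2.70 CPM to 48.9 and 79.4 CPM, or 3.98 (SE 0.26). OSGIN1 (chr16:83948282-83966332), an oxidative stress induced growth inhibitor, went from 6.72 and 3.63 CPM to 59.3 and 66.2 CPM, or 3.60 (SE 0.23). AKR1C3 rose by 2.62 and AKR1C1 by 2.47. Reads of AKR1C1, AKR1C2 and AKR1C3 may be shared among these close paralogs, and those of AKR1B10 with AKR1B15, so the split between them is uncertain.

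LOC344887, whose number RefSeq gives to the pseudogene NMRAL2P, stood at 0.549 and 0.284 CPM in DMSO, close to the limit of 3 reads, and at 14.2 and 13.95 CPM in KI696. An older symbol of the same gene, NMRAL1P1, is the entry of the core list that has no row under its name. The change of 4.47 (SE 0.47) depends on a few control reads. TRIM16L, which is close in sequence to TRIM16 and may share its reads, rose from 8.64 and 4.12 CPM to 52.6 and 51.6 CPM, or 3.07 (SE 0.24). The other 4 of these 15 genes belong to no redox list. F2RL2, the thrombin receptor family member PAR3, rose by 3.42 from 2.74 and 2.20 CPM to 24.4 and 33.5 CPM. CPLX3, a complexin of synaptic vesicle release, rose by 2.98, and TRIM54, a RING finger protein of muscle, by 3.24. WNT5A (chr3:55465715-55490539), a ligand of non-canonical Wnt signalling, was at 8.92 and 7.75 CPM in DMSO and at 61.4 and 69.3 CPM in KI696, a change of 2.94 (SE 0.14).

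**Figure D1:**
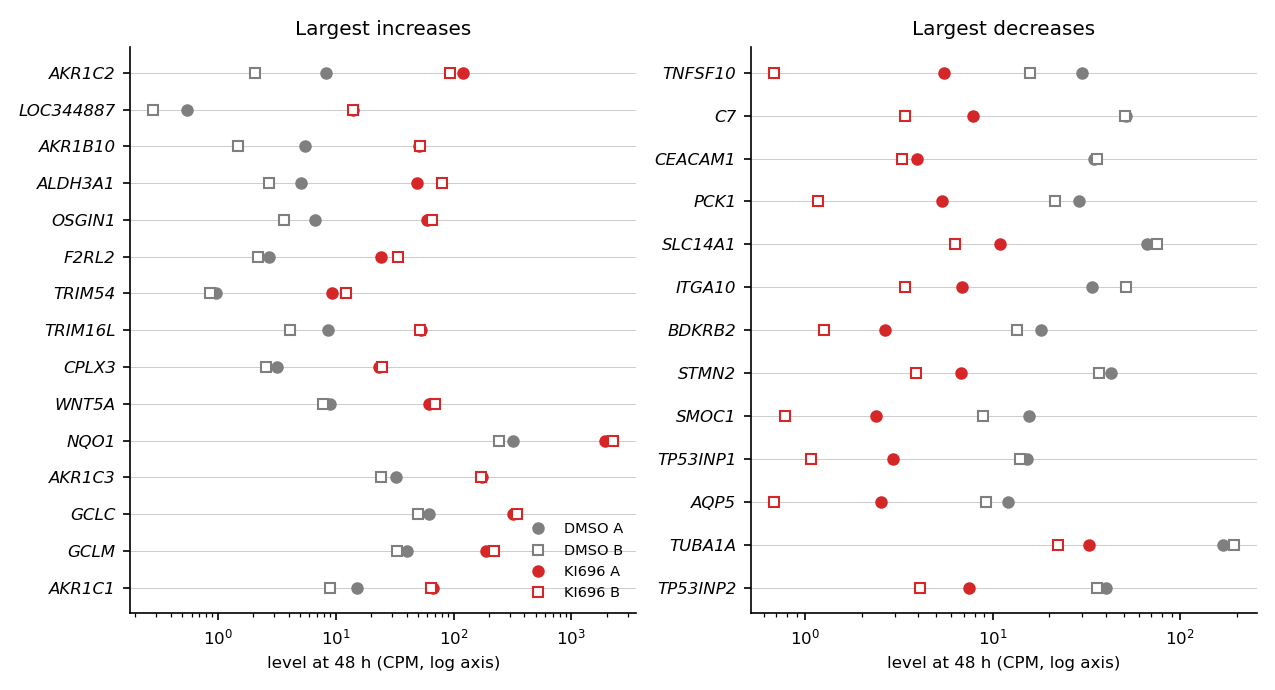
Levels in CPM (log axis) of the 15 largest increases and 13 of the 15 largest decreases in the 4 libraries of 48 h, where grey marks DMSO, red marks KI696, filled circles library A and open squares library B. Both red symbols lie on one side of both grey symbols for each gene, as the choice of genes required, and among the decreases KI696 B is the lowest library in each.

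NQO1 (chr16:69706996-69726951), a quinone reductase and standard readout of NRF2, stood at 319.8 and 243.7 CPM in DMSO and at 1939 and 2273 CPM in KI696. The groups were widely separated, and the change was 2.91 (SE 0.10, adjusted p = 1.2e-09). HMOX1, the heme oxygenase that opens the heme ring, behaved less steadily, at 38.6 and 19.1 CPM in DMSO and 61.7 and 46.8 CPM in KI696. The groups did not overlap, but DMSO A came close to KI696 B. Its change of 0.98 (SE 0.25, adjusted p = 0.006) was 0.48 (adjusted p = 0.064) without DMSO B and 1.48 without DMSO A. Fitted with no variance trend it was also not called (adjusted p = 0.075).

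Cystine import and the first step of glutathione synthesis rose together. GCLC and GCLM encode the catalytic and modifier subunits of glutamate-cysteine ligase. GCLC (chr6:53497341-53616970) was at 61.6 and 50.3 CPM in DMSO and 317 and 345 CPM in KI696, and GCLM (chr1:93885205-93909456) at 40.1 and 33.5 CPM and then 190 and 221 CPM. Every treated library exceeded every control, with changes of 2.57 (SE 0.09) and 2.48 (SE 0.09). SLC7A11, the cystine antiporter, rose by 2.07 (SE 0.08), its partner SLC3A2 by 1.14 (SE 0.07), and glutathione reductase, GSR, by 2.20 (SE 0.09). Elsewhere in the list members fell. GPX1, a cytosolic glutathione peroxidase, fell by 0.87 from 244 and 238 CPM to 142 and 122 CPM, and GPX4, the peroxidase of membrane lipids, by 0.32. Over the 30 tested genes of cystine uptake and glutathione synthesis and use, 13 rose (43.3%, against 22.4% of all tested genes). The 8 that fell (26.7%) were a share near the 26.4% of all tested genes. The list median was 0.13, or 0.20 without DMSO A or under TMM scaling.

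TXNRD1, thioredoxin reductase, stood at 541 and 451 CPM in DMSO and at 2192 and 2535 CPM in KI696, a change of 2.25 (SE 0.09). Its substrate thioredoxin, TXN, rose by 1.43 (SE 0.08). SRXN1, the sulfiredoxin that repairs peroxiredoxins, went from 46.2 and 29.5 CPM to 175 and 185 CPM, or 2.28 (SE 0.15). PRDX1, a peroxiredoxin, rose by 0.97 and PRDX6 by 0.49. Of 24 thioredoxin, sulfiredoxin and peroxiredoxin genes, 10 rose (41.7%, against 22.4% of all tested genes) and 7 fell (29.2%, against 26.4%). The median was 0.09, or 0.16 under TMM and 0.14 under median-ratio scaling.

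NADPH, the reducing power these enzymes consume, is made by the pentose phosphate pathway and malic enzyme. PGD, a dehydrogenase of its oxidative arm, rose by 1.72 (SE 0.07) and the non-oxidative enzymes TKT and TALDO1 by 1.62 (SE 0.06) and 1.15 (SE 0.06). Malic enzyme, ME1, was at 30.7 and 24.4 CPM in DMSO and 129 and 140.1 CPM in KI696, a change of 2.29 (SE 0.10). H6PD, a dehydrogenase inside the endoplasmic reticulum, went the other way, from 138 and 147.5 CPM to 62.1 and 66.3 CPM, or -1.15 (SE 0.08). All 18 tested genes of the list were called, 12 higher (66.7%, against 22.4% of all tested genes) and 6 lower (33.3%, against 26.4%).

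Short stretches of RefSeq promoters (build GRCh38.p14) are shown for GCLM, TXNRD1, ME1 and SLC3A2, since these targets rose together and hold the core of the antioxidant response element, TGACNNNGC, on either strand. The window ran from 250 bases before to 50 bases after each start site. Each line is the gene's own strand from 5′ to 3′, and capitals mark the 9 bases that match.
GCLM, minus strand, chr1:93909411-93909510: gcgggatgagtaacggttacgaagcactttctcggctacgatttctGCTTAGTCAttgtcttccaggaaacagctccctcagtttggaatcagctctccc
TXNRD1, plus strand, chr12:104215634-104215733: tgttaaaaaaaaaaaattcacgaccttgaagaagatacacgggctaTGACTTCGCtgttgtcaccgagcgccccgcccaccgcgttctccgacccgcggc
ME1, minus strand, chr6:83431135-83431234: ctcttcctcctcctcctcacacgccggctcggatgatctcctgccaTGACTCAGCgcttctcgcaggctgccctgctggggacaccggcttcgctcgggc
SLC3A2, plus strand, chr11:62881616-62881715: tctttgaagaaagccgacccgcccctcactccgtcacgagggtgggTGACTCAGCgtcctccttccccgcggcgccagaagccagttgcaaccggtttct
In GCLM the match reads as the reverse complement, TGACTAAGC, while ME1 and SLC3A2 hold the same TGACTCAGC. Of 29 NRF2 core targets with a RefSeq promoter, 8 held a match (27.6%), against 3702 of 27305 promoters in the RefSeq table (13.6%) and 1469 of 9678 promoters of tested genes (15.2%). Besides the 4 shown, these were PGD, PIR, CBR1 and FECH. Among genes that rose by 1 log2 unit or more, 39 of 183 held it (21.3%), and among those that fell by as much, 70 of 565 (12.4%). Of the 15 largest increases 11 had a promoter, and 1 of these held it (9.09%). For the 15 largest decreases it was 1 of 10 (10%). A match is a description of these letters, not a binding site.

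Reductases and dehydrogenases of reactive carbonyls and quinones went in both directions. ALDH3A2, a fatty aldehyde dehydrogenase, rose by 1.81 (SE 0.07), EPHX1, the microsomal epoxide hydrolase, by 1.82 (SE 0.08) and PTGR1, a reductase of leukotrienes and enals, by 1.94 (SE 0.10). The retinal dehydrogenase ALDH1A3 fell, from 60.9 and 83.0 CPM in DMSO to 18.8 and 22.9 CPM in KI696, a change of -1.77 (SE 0.15), and the reductase CBR4 changed by -1.32 (SE 0.11). Of 25 tested genes, 16 rose (64%, against 22.4% of all tested genes) and 3 fell (12%, against 26.4%), with a median of 1.00.

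Both ferritin chains, which store iron, rose. FTL stood at 1454 and 1204 CPM in DMSO and at 5746 and 6234 CPM in KI696, a change of 2.18 (SE 0.08), and FTH1 at 1049 and 845 CPM and then 3046 and 3333 CPM, or 1.76 (SE 0.08). The ferritin genes have many processed pseudogenes, so their reads may be shared. FECH, which inserts iron to form heme, rose by 1.53, the transferrin receptor TFRC by 1.11 and the porphyrin transporter ABCB6 by 1.06. Of 23 genes of iron and heme handling, 10 rose (43.5%, against 22.4% of all tested genes) and 4 fell (17.4%, against 26.4%). The list median was 0.18, or 0.14 without DMSO B and 0.09 without KI696 B. All 10 tested ABC efflux transporters were called. The drug transporters ABCC1, ABCC2 and ABCC3 rose by 0.46, 1.70 and 1.05, and the cholesterol exporters ABCA1 and ABCG1 changed by -1.57 and -2.35. In all, 6 rose (60%, against 22.4% of all tested genes) and 4 fell (40%, against 26.4%). The list median was 0.32, or 0.25 without KI696 A or without KI696 B.

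**Figure D2:**
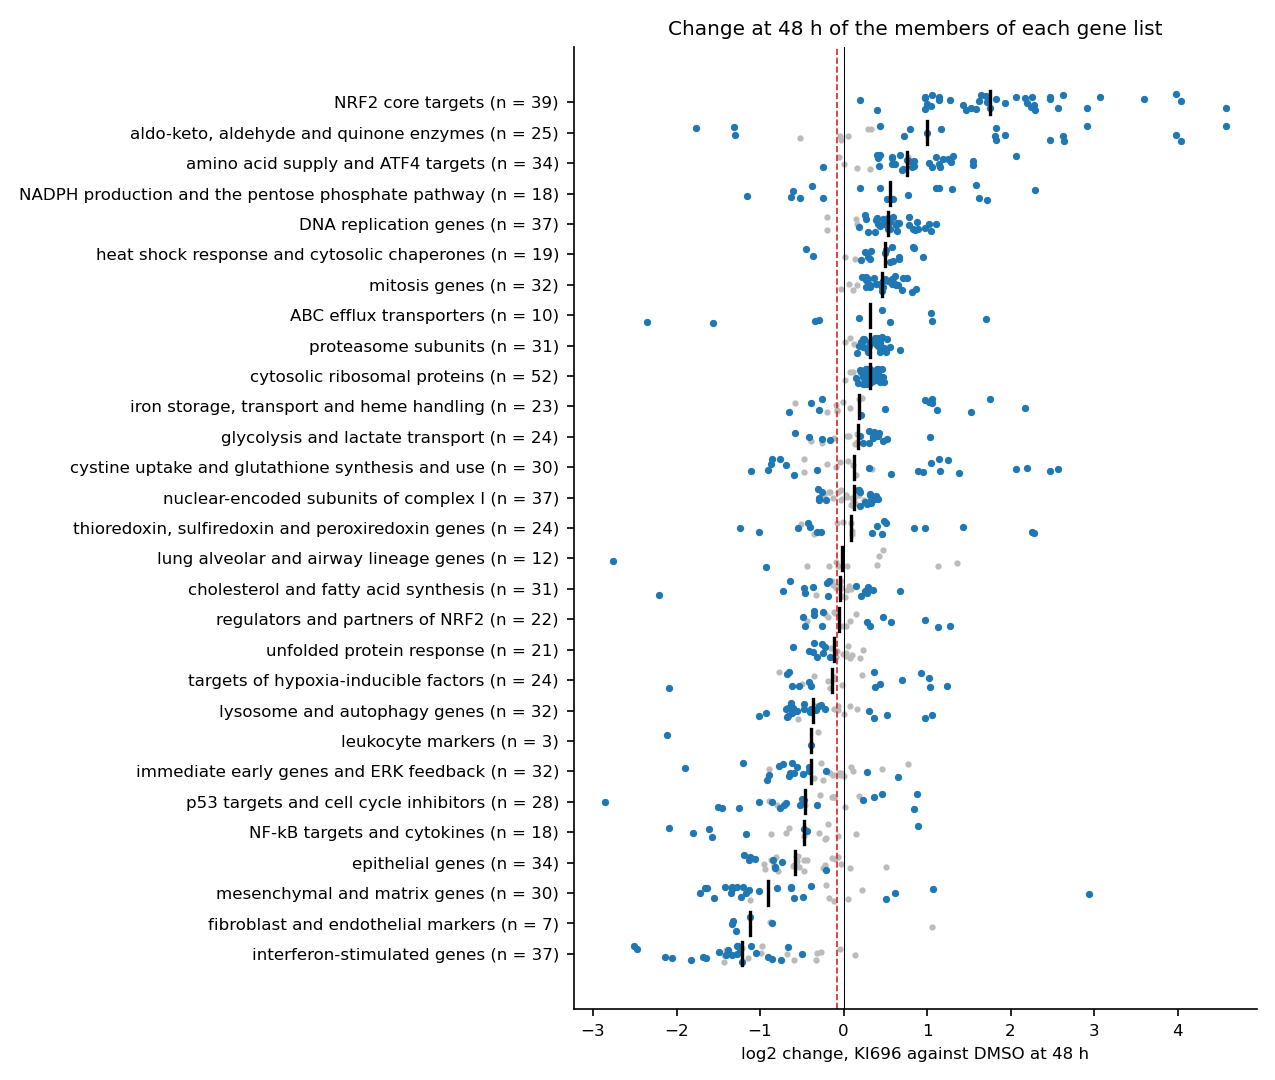
Log2 change at 48 h of every tested member of each gene list, ordered by the list median (black bar), with called genes in blue and others in grey. The dashed line is the median of all tested genes, -0.07, and the medians of NRF2 core targets and interferon-stimulated genes, at the top and bottom, are 1.76 and -1.22.

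Protein quality control genes rose by smaller amounts. Of 31 proteasome subunits, 28 rose (90.3%, against 22.4% of all tested genes) and 0 fell, with a median of 0.32. No change was above 0.67, the value of the lid subunit PSMD11 (110.3 and 109 CPM in DMSO, 171 and 179 CPM in KI696). PSMA3, a core particle subunit, rose by 0.56. Of 19 heat shock genes, 15 rose (78.9%) and 2 fell (10.5%, against 26.4% of all tested genes), with a median of 0.50, or 0.32 under quantile scaling. FKBP4, a cochaperone of HSP90, rose by 0.96 (SE 0.06), the mitochondrial chaperonin HSPD1 by 0.84 (SE 0.06) and the cochaperone CHORDC1 by 0.84 (SE 0.07). HSPA1B rose by 0.67 while its near-identical copy HSPA1A changed by -0.45, and reads of these 2 genes cannot be divided with certainty. Genes of the unfolded protein response did not rise, with 0 higher and 9 lower of 21 (42.9%, against 26.4% of all tested genes) and a median of -0.12. The disulfide isomerase P4HB fell by 0.41. The count of 9 was 4 under TMM scaling and 5 without KI696 B or with no variance trend, and the median was -0.05 under TMM scaling.

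Amino acid supply was a further set that rose. ATF4, the transcription factor of the integrated stress response, stood at 267 and 258 CPM in DMSO and at 406 and 431 CPM in KI696, a change of 0.67 (SE 0.05). ASNS, asparagine synthetase (chr7:97852118-97872542), went from 92.5 and 85.7 CPM to 232 and 296 CPM, or 1.56 (SE 0.10), and the large amino acid transporter SLC7A5 from 329 and 288 CPM to 856 and 951 CPM, or 1.55 (SE 0.07). No KI696 library of these genes overlapped a DMSO library. PSAT1, of serine synthesis, rose by 1.29, PYCR1, of proline synthesis, by 1.31, the pseudokinase TRIB3 by 1.25 and the mitochondrial folate enzyme MTHFD2 by 1.11. Of 34 amino acid supply and ATF4 target genes, 28 rose (82.4%, against 22.4% of all tested genes), with a median of 0.77. Only 1 fell (2.94%, against 26.4%), or 0 with no variance trend. The cystine transporter SLC7A11 is a member of this list and of the NRF2 list.

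Genes of cell division were higher with KI696 at 48 h. Of 37 DNA replication genes, 33 rose (89.2%, against 22.4% of all tested genes) and 0 fell, with a median of 0.53. MCM10, of origin firing, rose by 1.02 (SE 0.08), CDCA7 by 0.86 (SE 0.06), the licensing factor CDT1 by 0.78 (SE 0.07) and the helicase subunit MCM7 by 0.64 (SE 0.05). Of 32 mitosis genes, 28 rose (87.5%) and 0 fell, with a median of 0.46. CCNA2, cyclin A2, was at 105 and 100 CPM in DMSO and at 178 and 183 CPM in KI696, a change of 0.82 (SE 0.06). MAD2L1, of the spindle checkpoint, rose by 0.86, Aurora kinase B, AURKB, by 0.76 and the kinase PLK1 by 0.70. The controls also moved between the times. The mean log2 level of the mitosis list was 7.45 and 7.42 in DMSO at 24 h and 7.03 and 6.89 in DMSO at 48 h, while KI696 held 7.50 and 7.57 and then 7.38 and 7.43.

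Cytosolic ribosomal protein genes were slightly higher, with 48 of 52 called higher (92.3%, against 22.4% of all tested genes), 0 lower and a median of 0.32. RPL14 was at 819.8 and 839 CPM in DMSO and at 1138 and 1143 CPM in KI696, or 0.46 (SE 0.05). Under quantile scaling 24 were higher and 1 lower, with a median of 0.11, so the size of this shift depended on the scaling. Ribosomal protein genes also have many pseudogenes that can share reads. Energy metabolism moved less evenly. Of 24 glycolysis genes, 12 rose (50%, against 22.4% of all tested genes), or 6 under quantile scaling. Another 4 fell (16.7%, against 26.4%), or 2 with the 48 h libraries fitted alone. Enolase, ENO1, rose by 0.52, or 0.28 under quantile scaling, and hexokinase 2, HK2, by 1.04, and the glucose transporter SLC2A3 fell by 0.58. Of 37 nuclear-encoded complex I subunits, 14 rose (37.8%, against 22.4% of all tested genes) and 5 fell (13.5%, against 26.4%). With no variance trend 8 rose and 2 fell, and 2 fell without DMSO A, without KI696 B or under TMM or median-ratio scaling. NDUFB7 changed by 0.37. Of 31 genes of cholesterol and fatty acid synthesis, 7 rose (22.6%) and 9 fell (29%), shares near the 22.4% and 26.4% of all tested genes. Their median was -0.04, or 0.03 under TMM scaling. The counts were 4 higher without DMSO A, without KI696 A or with no variance trend, and 4 lower without DMSO B or 5 without KI696 A. Fatty acid synthase, FASN, rose by 0.68, the LDL receptor fell by 0.64 and the sterol reductase gene TM7SF2 changed by -2.21 (78.8 and 93.7 CPM in DMSO, 21.7 and 15.6 CPM in KI696).

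The 15 largest decreases were more varied in role. All 15 had also been called lower at 24 h, where 30.5% of all tested genes were. PCK1 (chr20:57561080-57568112), the gluconeogenic carboxykinase, went from 28.7 and 21.4 CPM to 5.33 and 1.16 CPM, or -3.16 (SE 0.44). TNFSF10 (chr3:172505508-172523507), the death ligand TRAIL, was at 29.9 and 15.7 CPM in DMSO and 5.47 and 0.678 CPM in KI696. Its change was -3.26 (SE 0.61), or -1.94 without KI696 B. The cell adhesion molecule CEACAM1 (chr19:42507304-42561234) had 34.7 and 36.0 CPM in DMSO and 3.93 and 3.29 CPM in KI696, with little spread in either group, and changed by -3.21 (SE 0.20).

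C7, a terminal complement component, fell by 3.24, the urea transporter SLC14A1 by 3.05, the integrin ITGA10 by 3.05 and the bradykinin receptor BDKRB2 by 2.92. TUBA1A (chr12:49184796-49189324), an alpha tubulin of neurons, stood at 169 and 193 CPM in DMSO and at 32.5 and 22.3 CPM in KI696, a change of -2.74 (SE 0.14). STMN2, a stathmin of growing axons, fell by 2.90, the matrix protein SMOC1 by 2.88 (SE 0.49), and TP53INP2, an autophagy cofactor, by 2.73 (SE 0.22). For all 15, KI696 A lay above KI696 B, and the same held for 588 of the 832 genes that fell by 1 unit or more. Among the 259 that rose by as much, KI696 B lay above A in 181. Over all 13213 tested genes KI696 A lay above B in 6454 and B above A in 6759. In DMSO, B lay above A in 538 of the 832 and A above B in 181 of the 259, against 7318 and 5895 of all tested genes. Among genes that changed by 1 unit or more, library A of each group thus more often lay nearer the other treatment. In DMSO, A lay above B in all 15 largest increases but also in 10 of the 15 largest decreases. Along the first principal component DMSO B (-31.5), not DMSO A (-41.4), lay nearer KI696, while KI696 A (7.92) lay nearer DMSO than KI696 B (40.3). The A libraries also held the higher epithelial levels. The part of the difference between libraries in these changes was not tested.

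Among targets of p53 and cell cycle inhibitors, more genes fell than rose. CDKN1A, the cyclin-dependent kinase inhibitor p21, was at 39.2 and 36.1 CPM in DMSO and at 15.1 and 12.2 CPM in KI696, a change of -1.45 (SE 0.14). TP53INP1, a p53-induced nuclear protein, fell by 2.86 (SE 0.34), TP53I3, a quinone oxidoreductase, by 1.25 (SE 0.16) and BTG1, an antiproliferative factor, by 0.86 (SE 0.07). The exonuclease AEN rose by 0.88. MDM2, the ligase of p53, stood at 76.6 and 68.2 CPM and then 85.2 and 84.4 CPM, 0.23 (SE 0.08, adjusted p = 0.035), and its call was lost without DMSO B (adjusted p = 0.22), without KI696 A (adjusted p = 0.096) and without KI696 B (adjusted p = 0.085). Of 28 genes in the list, 5 rose (17.9%, against 22.4% of all tested genes), 13 fell (46.4%, against 26.4%) and 10 were not called. The median was -0.47, or -0.27 without KI696 B, and 3 rose without KI696 A.

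Of 37 tested interferon-stimulated genes, 0 rose and 23 fell (62.2%, against 26.4% of all tested genes). Their median was -1.22, or -0.83 without DMSO A and -0.60 without KI696 B, where 17 and 16 fell. OASL, an antiviral family member, stood at 14.7 and 14.6 CPM in DMSO and at 3.23 and 1.74 CPM in KI696, a change of -2.50 (SE 0.28), and IFIT3 at 19.4 and 17.2 CPM and then 5.19 and 3.003 CPM, or -2.14 (SE 0.24). The groups did not overlap for either. The signal transducer STAT2 changed by -1.28 (SE 0.13). Within each group the list moved with the library. Its mean log2 level was 3.70 (A) and 3.15 (B) in DMSO and 2.72 (A) and 1.83 (B) in KI696. KI696 A lay above B for 36 of 37 genes, against 6454 of all 13213 tested genes. In both groups 6 of the 37 were higher in A by 1 log2 unit or more, where 1.87% of all tested genes were. Whether the difference between libraries contributed to the change was not tested.

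Of inflammatory and early response genes, fewer than 50% passed the test as lower. PTGS2, the inducible cyclooxygenase, was at 353 and 383 CPM in DMSO and at 167 and 161 CPM in KI696, a change of -1.17 (SE 0.06), NFKBIZ, an inducible NF-kB cofactor, changed by -1.58 (SE 0.16) and TNFAIP2 by -0.48 (SE 0.07). The growth factor CSF1 rose by 0.89. Of 18 tested NF-kB targets and cytokines, 1 was higher (5.56%, against 22.4% of all tested genes). Another 7 were lower (38.9%, against 26.4%), or 5 under quantile scaling. Among 32 immediate early genes and feedback inhibitors of ERK, 2 rose (6.25%, against 22.4% of all tested genes) and 15 fell (46.9%, against 26.4%). Their median was -0.39, or -0.21 without both B libraries. The ERK phosphatase DUSP6 fell by 0.92 (SE 0.07), IER3 by 0.89 (SE 0.07) and PHLDA1 by 0.73 (SE 0.07). EGR1, a zinc finger factor of early growth signals, stood at 53.1 and 45.1 CPM and then 27.8 and 16.0 CPM, or -1.21 (SE 0.19), while FOSL1, an AP-1 subunit, rose by 0.65 (SE 0.09). MYC overlapped between the groups, at 38.3 and 19.1 CPM in DMSO and 50.6 and 27.6 CPM in KI696, and was not called. Of 24 targets of hypoxia-inducible factors, 8 were higher (33.3%) and 7 lower (29.2%), not far from the 22.4% and 26.4% of all tested genes. ANGPTL4, an inhibitor of lipoprotein lipase, changed by -2.09 and the carbonic anhydrase CA12 by 1.24.

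Matrix genes fell, while transcription factors of the mesenchymal state, named after their values were seen, went in both directions. FN1, fibronectin (chr2:215360440-215436172), stood at 2747 and 2549 CPM in DMSO and at 918 and 701 CPM in KI696, a change of -1.72 (SE 0.09). TIMP3, a metalloproteinase inhibitor, went from 2033 and 2450 CPM to 719.6 and 691 CPM, or -1.66 (SE 0.07). COL5A2, a fibrillar collagen, fell by 1.33, the matrix glycoprotein SPARC by 1.14 and vimentin, VIM, by 0.63 (SE 0.09). SNAI2, a repressor of epithelial genes, was at 11.1 and 10.6 CPM in DMSO and at 23.1 and 23.1 CPM in KI696, a rise of 1.07 (SE 0.11), and ZEB1, of the same function, rose by 0.51 (SE 0.08). ZEB2 fell by 1.64 (SE 0.26). SNAI1 was at 0.61 (SE 0.23, adjusted p = 0.045), a call lost in 12 alternatives, among them the fits without DMSO B, KI696 A or KI696 B. Of 30 tested mesenchymal and matrix genes, 4 rose (13.3%, against 22.4% of all tested genes) and 20 fell (66.7%, against 26.4%), with a median of -0.90. The 4 were WNT5A, SNAI2, SNAI1 and ZEB1. Fibroblast and endothelial markers, which this line expresses in part, followed, with 0 of 7 higher and a median of -1.13. Of the 7, 5 were lower (71.4%, against 26.4% of all tested genes). PDGFRB, a growth factor receptor of fibroblasts, went from 70.1 and 81.7 CPM to 32.2 and 27.6 CPM, or -1.34 (SE 0.11). Of 3 tested leukocyte markers, 2 fell (66.7%, against 26.4% of all tested genes) and 0 rose. LYZ, lysozyme, fell by 2.11 and CD68, a lysosomal protein, by 0.38. Without both A libraries the change of CD68 was -0.30 (adjusted p = 0.074).

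Lysosome and autophagy genes were mostly lower, with a median of -0.37. Of 32, 5 were higher (15.6%, against 22.4% of all tested genes) and 19 lower (59.4%, against 26.4%). CTSB, the protease cathepsin B, stood at 242 and 233 CPM in DMSO and at 132 and 117 CPM in KI696, a change of -0.93 (SE 0.07). The saposin precursor PSAP fell by 0.66 and beta-galactosidase, GLB1, by 0.69. SQSTM1 and GLA, alpha-galactosidase A, rose, the latter by 1.07 (SE 0.12).

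At 48 h the epithelial genes differed in how far libraries A and B of a group stood apart. A call needs a change that is large against this spread, so called genes have close libraries partly by construction. SPINT2, a serine protease inhibitor, was at 474 and 527 CPM in DMSO and at 224 and 231 CPM in KI696, a change of -1.14 (SE 0.07). KRT8, a keratin, had 635 and 695 CPM in DMSO and 349.5 and 266 CPM in KI696, or -1.12 (SE 0.10). The tight junction gene CLDN1 changed by -1.19 (SE 0.11) and the keratin KRT80 by -0.83 (SE 0.13), and neither overlapped between groups. By contrast CDH1, the gene of E-cadherin (chr16:68737225-68835548), stood at 34.3 CPM in DMSO A, 7.39 in DMSO B, 29.02 in KI696 A and 4.46 in KI696 B. Here the A libraries of both treatments were high and the B libraries of both were low, and the change of -0.47 (SE 0.74) was not called. EPCAM, an epithelial adhesion molecule, showed the same order at 42.5, 16.9, 34.4 and 9.49 CPM, as did KRT19, a keratin, at 167, 92.8, 139 and 36.2 CPM, and ESRP1, an epithelial splicing factor, at 16.3, 3.20, 15.3 and 1.36 CPM.

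Of 34 tested epithelial genes, 0 rose and 9 fell (26.5%, near the 26.4% of all tested genes), with a median of -0.58. KRT7 and LSR, a tricellular junction receptor, were among the 9, at -0.82 and -0.74, or -0.51 and -0.44 without KI696 B. The call of KRT18, at -0.21, was lost without DMSO B (adjusted p = 0.089). The list mean was 4.65 (DMSO A), 3.47 (DMSO B), 4.46 (KI696 A) and 2.50 (KI696 B) on the log2 scale. At 24 h it was 5.21 and 4.98 with DMSO and 2.08 and 2.57 with KI696. There 34 of 34 fell, against 30.5% of all tested genes at 24 h, with a median of -3.10. Single libraries decide the value at 48 h. The list median was 0.05 without DMSO A, -1.23 without DMSO B, -1.57 without KI696 A and 0.40 without KI696 B, and 28 members were called lower without KI696 A. With both A libraries left out 22 were lower and 0 higher, and with both B libraries left out 9 were lower and 3 higher. With the list mean of each library as a covariate, 10 were lower and 6 higher. That mean is made from these same genes, so the fit centres the list near no change by construction, with a median of -0.01. Of 12 tested lung lineage genes 0 rose and 2 fell (16.7%, below the 26.4% of all tested genes), and the list median was -0.02. The 2 were ABCA3, a surfactant lipid transporter, by 0.92 and AQP5, a water channel, by 2.76. Without KI696 A 6 were lower and the median was -0.91, and without KI696 B 5 were higher and it was 0.96. The lineage factor NKX2-1 stood at 12.1, 2.49, 12.8 and 1.16 CPM in the same order of libraries, and the surfactant gene SFTPA1 at 1.37, 0, 7.29 and 0.0969 CPM.

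**Figure D3:**
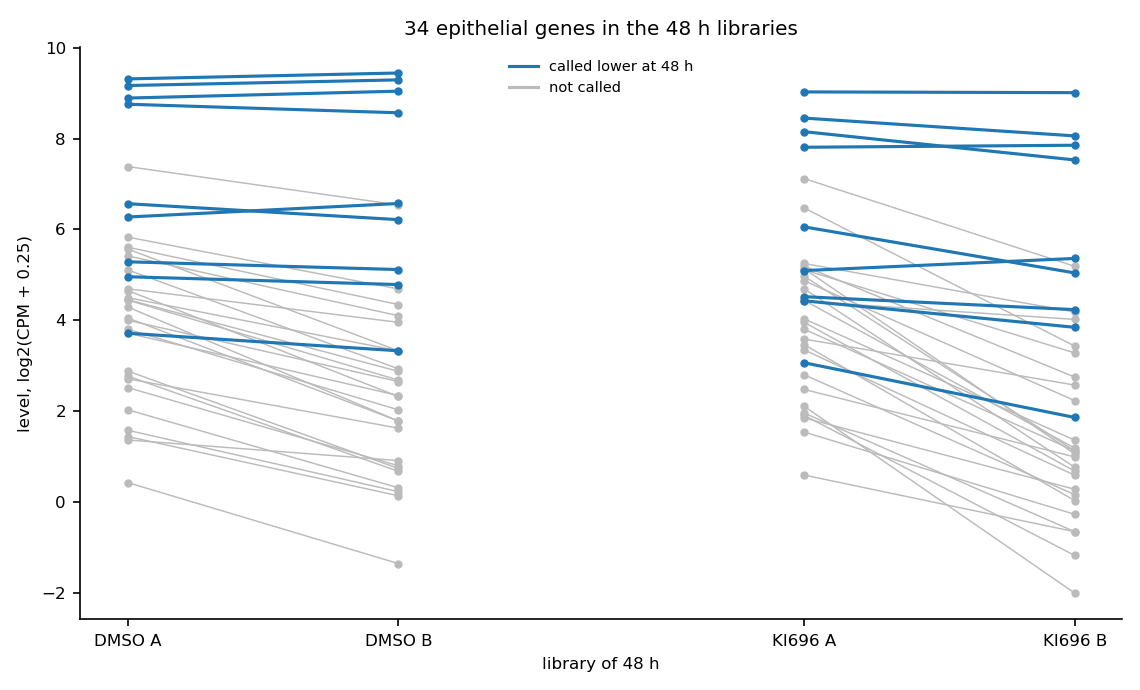
Log2 level of the 34 tested epithelial genes in the 4 libraries of 48 h, with lines joining A and B of a group, blue for the 9 genes called lower with KI696 and grey for the rest. Most grey lines fall steeply from A to B in both groups. The blue lines are flatter, which the call itself favours, and lie lower in KI696.

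Over all tested genes, 247 (1.87%) were at least 1 log2 unit higher in A than in B both with DMSO and with KI696, and the reverse held for 3 (0.0227%). Of the 34 epithelial genes 22 were among the 247. The 10 genes with the widest such range at a mean of 5 CPM or more, chosen for that range, included ST14, NRIP1, IFI27, ESRP1, CDH3, GPR110, CDH1, NKX2-1 and TMEM30B. ST14, the protease matriptase, stood at 19.4 (DMSO A), 3.20 (DMSO B), 21.5 (KI696 A) and 2.03 (KI696 B) CPM. Their groups overlapped and none of the 10 was called at 48 h, which the choice by range within groups largely fixed in advance. These outcomes thus say nothing about an effect of treatment on these genes. The cause of the difference between A and B was not tested.

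Whether the change at 48 h differed from that at 24 h was tested as a difference of effects, and the times rest on separate control libraries. At 24 h 6422 genes (48.6%) were called, and 4647 were called in the same direction at both times, which is 72.1% of the calls at 48 h and 72.4% of those at 24 h. A further 27 were called in opposite directions. The difference itself was called for 112 genes (0.848%), 89 higher and 23 lower at 48 h, and for 2113 genes at an unadjusted p under 0.05. This count was fragile, falling to between 1 and 5 genes with any of the 24 h libraries left out, rising to 503 without DMSO 48 h A and 530 without KI696 48 h B, and reaching 838 without both A libraries and 756 without both B libraries of 48 h.

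For several members of the NRF2 and ATF4 sets the change against DMSO was larger at 48 h. The mean log2 level of the NRF2 core targets was 5.953 and 5.940 in DMSO at 24 h and 5.926 and 5.579 at 48 h. With KI696 it was 7.675 and 7.682, then 7.685 and 7.730. For the ATF4 list it was 6.442 and 6.504 in DMSO, then 6.243 and 6.185, and with KI696 6.738 and 6.708, then 6.939 and 7.065. The part of the controls in these differences was not tested. NQO1 rose by 1.87 at 24 h and 2.91 at 48 h, a difference of 1.04 (SE 0.15, adjusted p = 0.0097), and FTL by 1.47 and 2.18, a difference of 0.70 (SE 0.11, adjusted p = 0.012). For TKT the difference was 0.55 and for BLVRB, a biliverdin reductase, 0.76. IDH1 was at -0.22 at 24 h and 0.20 at 48 h, a difference of 0.42 (adjusted p = 0.047). Of the 39 core targets, 30 had the larger log2 change at 48 h, and for 5 the difference was called. It was called for 0.848% of all tested genes. The median difference was 0.18 for these targets and 0.04 for all tested genes, so most tested genes also had a positive difference. ASNS rose by 0.45 and then 1.56, a difference of 1.10 (SE 0.14, adjusted p = 0.0058), and PYCR1 was at 0.04 and then 1.31, a difference of 1.27. SLC7A5, TRIB3, ATF4, MTHFD2 and AARS, an alanyl-tRNA synthetase, had differences of 0.73, 1.03, 0.53, 0.55 and 0.49. DDIT4 (chr10:72273920-72276036), an inhibitor of mTORC1 induced by stress, fell by 0.33 at 24 h but at 48 h stood at 56.4 and 48.3 CPM in DMSO and 111 and 103 CPM in KI696, a rise of 1.03. Its difference of 1.36 (SE 0.12, adjusted p = 0.00039) involved no overlap of the 48 h groups. In the ATF4 list, 31 of 34 members had the higher value at 48 h and the difference was called for 8. The median difference of this list was 0.40, against 0.04 for all tested genes.

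**Figure D4:**
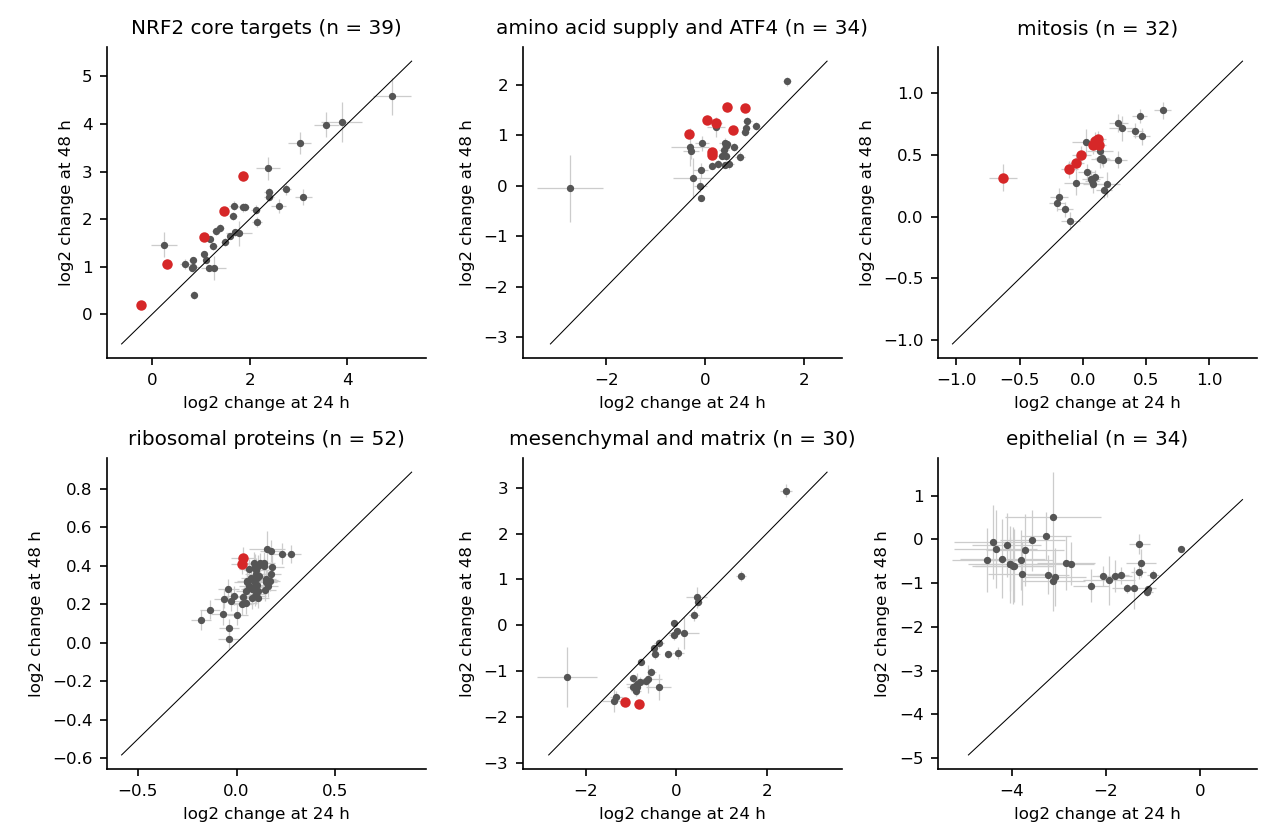
Log2 change at 48 h (vertical) against 24 h (horizontal) for the members of 6 lists, with standard errors as grey bars, equality as the line, and red for genes whose difference between times was called. Mitosis and ribosomal protein genes lie above the line in 32 of 32 and 52 of 52 cases, and matrix genes mostly below it. The median difference is 0.33 for mitosis and 0.23 for ribosomal protein genes, against 0.04 for all tested genes.

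For mitosis the median rose from 0.10 at 24 h to 0.46 at 48 h. At 24 h 10 were higher and 3 lower, where 18.1% and 30.5% of all tested genes were. The difference was called for 8 of 32, against 0.848% of all tested genes. CDC25C, a mitotic phosphatase, was at -0.63 and then 0.32, a difference of 0.95, although its call at 48 h was lost without DMSO B (adjusted p = 0.12), KI696 A (adjusted p = 0.067) or KI696 B (adjusted p = 0.12). PTTG1, securin, had a difference of 0.51, cyclins B1 and B2 (CCNB1 and CCNB2) 0.50 and 0.49, and the anaphase activator CDC20 0.46. In the replication list it was called for CDT1 at 0.51 and for TK1, thymidine kinase, at 0.61. TK1 was at 0.19 at 48 h, a call lost without DMSO B (adjusted p = 0.21), KI696 A (adjusted p = 0.13) or KI696 B (adjusted p = 0.054). Ribosomal protein genes had a median of 0.09 at 24 h, and RPSA and RPS3 differed by 0.38 and 0.41. Control levels moved between the times as well, as given above for the NRF2, ATF4 and mitosis lists, and the part of the controls in these differences was not tested.

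In the other direction the largest difference was that of IGFBP7, a binding protein of growth factors. It was at 23.9 and 21.2 CPM in DMSO and at 3.79 and 3.39 CPM in KI696 at 48 h, a change of -2.57 after -1.18 at 24 h, so that the difference was -1.39 (SE 0.22, adjusted p = 0.015). LRRC17, a leucine-rich secreted protein, differed by -1.38, the histone HIST1H2BK by -1.20, the apolipoprotein APOE by -1.11, LTBP2, of the TGF-beta binding proteins, by -0.90 and FN1 by -0.89. PODXL, podocalyxin, differed by -0.81 and TIMP3 by -0.53. BAMBI, a decoy receptor of TGF-beta signalling, reversed its direction, from 0.34 at 24 h to -0.53 at 48 h.

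Among the largest differences upward were genes called lower at 24 h and not called at 48 h. SAMD12 was at -2.30 and then 0.50, a difference of 2.80 (SE 0.39, adjusted p = 0.0097), with overlapping groups at 48 h (4.67 and 3.55 CPM in DMSO, 7.85 and 4.36 CPM in KI696). TSC22D3, the glucocorticoid-induced leucine zipper GILZ, differed by 1.90, TMEM156 by 1.83, KIAA1522 by 1.52 and FAM84B by 1.38, and none of these 4 was called at 48 h. RIMS3, ARHGEF16 and CYB5A, cytochrome b5, were lower at 24 h and higher at 48 h, with differences of 1.79, 1.54 and 1.40. With the epithelial mean as a covariate the differences of TSC22D3, KIAA1522 and CYB5A were 1.08, 0.88 and 0.70 and were not called (adjusted p = 0.17, 0.095 and 0.25). That of FAM84B was 0.67 (adjusted p = 0.015). The epithelial mean was itself lower with KI696 at 24 h (5.21 and 4.98 in DMSO, 2.08 and 2.57 in KI696). At 48 h it was 4.65 and 3.47 in DMSO and 4.46 and 2.50 in KI696. The covariate thus holds part of the difference being tested, and adjusting for it takes that part away. The source of these differences was not tested. The change of CYB5A at 48 h, 0.59 (adjusted p = 0.026), was 0.23 (adjusted p = 0.31) without DMSO B, 0.38 (adjusted p = 0.17) without KI696 A and 0.95 without DMSO A.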

How the data were processed

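The authors deposited a table of log2 values, taken here as log2 CPM because all columns share a floor of -2.05 (0.242 CPM at 0 reads) and step in whole reads on the antilog scale. Per the submitters' processing notes, R 4.0.3, edgeR and the hg38 build were used, with no role given. Aligner, counter, annotation and strand setting: not given in the sources used here. Of 14556 symbols, 21 turned into dates by spreadsheet software were left out. Tests covered the 13213 genes that reached 1 CPM above the floor in 2 or more of the 8 libraries, and 12274 (92.9%) matched GENCODE 29 for coordinates.

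The deposited log2 values were fitted in limma 3.58.1 (R 4.3.3), with a mean for each of the 4 groups and a variance trend. Tests were two-sided, with Benjamini-Hochberg adjustment at 0.05 over all tested genes. Residual degrees of freedom were 4, or 13.1 with those lent across genes, and the spread is shared by all groups. Pairs of libraries lay closer at 24 h than at 48 h, so the shared spread can understate that at 48 h. The 48 h libraries fitted alone, with fewer degrees of freedom, gave 5565 calls in place of 6445. SE is the standard error of a log2 change. Depth per library is in the report, and the precision of low genes is set by the limit of 3 reads.

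The genes and the 29 lists (838 entries) were chosen with earlier results of these data known. Named genes are 10 pathway genes, the 15 largest called changes each way with a mean of at least 5 CPM and no overlap, up to 5 members per list by p, the 8 largest differences of effects each way and the 10 widest ranges within both 48 h groups. A further 34 were chosen after their values were seen: SNAI1, SNAI2, ZEB1, ZEB2, VIM, ATF4, MYC, FOSL1, EGR1, GPX1, GPX4, IDH1, H6PD, ALDH1A3, CBR4, HSPA1A, GLA, KRT7, KRT18, KRT19, EPCAM, ABCC2, MDM2, BLVRB, TRIB3, MTHFD2, PYCR1, AARS, CCNB1, CCNB2, CDC20, CDC25C, TK1 and RPS3. Some genes the rule names are not reported here, and counts over lists include them. Alternatives changed the added CPM, filter, scaling, variance model, weights, covariate or libraries, and 3 of the 23 were chosen after seeing the data.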

Additional observations from a re-analysis of the deposited data

Results flagged for a closer look

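A test of the difference between the 48 h and the 24 h change picked out 112 genes. Values are the log2 change at 48 h minus that at 24 h. Among NRF2 targets they were 1.04 for NQO1, 0.70 for FTL, 0.55 for TKT, 0.76 for BLVRB and 0.42 for IDH1. In the ATF4 list they were 1.10 for ASNS, 0.73 for SLC7A5, 1.36 for DDIT4, 0.53 for ATF4, 1.03 for TRIB3, 0.55 for MTHFD2, 1.27 for PYCR1 and 0.49 for AARS. In the cell division and ribosomal lists they were 0.51 for CDT1, 0.61 for TK1, 0.51 for PTTG1, 0.50 for CCNB1, 0.49 for CCNB2, 0.46 for CDC20, 0.95 for CDC25C, 0.38 for RPSA and 0.41 for RPS3. The 8 largest upward differences were 2.80 for SAMD12, 1.90 for TSC22D3, 1.83 for TMEM156, 1.79 for RIMS3, 1.54 for ARHGEF16, 1.52 for KIAA1522, 1.40 for CYB5A and 1.38 for FAM84B. Downward, they were -1.39 for IGFBP7, -1.38 for LRRC17, -1.20 for HIST1H2BK, -1.11 for APOE, -0.90 for LTBP2, -0.89 for FN1, -0.86 for BAMBI, -0.81 for PODXL and -0.53 for TIMP3. Each of these calls was lost in at least 1 alternative, DDIT4 in 1, PYCR1 in 2, TMEM156 in 3 and the others in 5 to 12.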

How the results depend on the processing

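The count of 6445 genes at 48 h stayed within 1.5 times of itself in the 23 alternatives, from 4902 without both B libraries to 6927 with the lung lineage covariate. Of the 6445 calls, 4276 (66.3%) held with each 48 h library left out in turn, and 176 of 190 named genes called at 48 h held in every alternative. Higher genes made up 45.8% of calls, against 54.2% under TMM, 52% under median-ratio and 52.2% under quantile scaling, where the median change of all genes was -0.01, -0.03 and 0.02. The 112 differences of effects became 191 with 5 CPM added, 176 with array weights, 69 with the lung lineage covariate, 5 with no gene filter and 838 and 756 without both A or both B libraries of 48 h. With no variance trend limma called 0, and 1681 had an unadjusted p under 0.05. Leaving out 1 library gave 1 to 530. With the epithelial covariate, which itself differs with treatment and library, the changes of ST14, NRIP1 and TMEM30B turned to 0.85, 0.85 and 0.93. With single libraries left out, FAM84B ranged from -0.32 to 0.36, GPR110 from -2.24 to 2.35 and TMEM30B from -1.79 to 1.66, and the cause was not tested. With 5 CPM added, which shrinks changes of low genes by construction, the medians of the interferon, p53, immediate early, matrix and epithelial lists were -0.57, -0.27, -0.23, -0.57 and -0.25. No paired analysis was possible because the columns carry no replicate number, so the numbers in the labels could not be matched to them. Levels under the limit of 3 reads cannot be told from 0 at this depth.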
